A study of Mus musculus with 9 samples.

Results

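The Hox genes code for homeodomain transcription factors that give cells their place along the body axis. The genes lie in 4 clusters, A to D, and within each cluster their order along the chromosome matches the order of their use from head to tail, from paralogue 1 at the anterior end to paralogue 13 at the posterior end. Fibroblasts in culture keep the Hox genes of the place they were taken from, held by Trithorax and Polycomb proteins, and retinoic acid switches on the anterior genes of a cluster first. In the embryo the heart forms near the anterior limit of Hox use, and Hoxb1 and Hoxa3 mark part of its progenitor cells.

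Members were taken from a list of 38 Hox genes, ordered by cluster and paralogue number, and each was represented by its probe set of 1 gene symbol with the highest mean over the 9 arrays. A probe set is the group of short probes by which the array measures a transcript. Of the 38 genes 33 had such a probe set, out of 18193 genes on the array: 9 of cluster A, 9 of B, 7 of C and 8 of D. Hoxa6, Hoxb8, Hoxc11, Hoxc12 and Hoxd4 had none and have no value here. The choice used each probe set's mean over all arrays and no difference between groups.

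Total RNA of 3 groups of mouse samples was measured, with 3 arrays each. CiCM were chemically induced cardiomyocyte-like cells, made from embryonic fibroblasts with 10 µM CHIR99021 (a GSK3 inhibitor), 10 µM RepSox (a TGF-beta receptor inhibitor), 50 µM Forskolin (an activator of adenylyl cyclase), 0.5 mM VPA (a histone deacetylase inhibitor), 5 µM Parnate (an inhibitor of monoamine oxidases and the demethylase LSD1) and 1 µM TTNPB (an agonist of retinoic acid receptors), and taken as beating clusters picked on day 24. CM were cardiomyocytes isolated from mouse hearts, with no age or strain in the labels. MEF were fibroblasts isolated from C57BL/6 embryos at embryonic day 13.5; no label gives the body part, the passage or a vehicle-treated control kept for the same time, so the cocktail and 24 days of culture cannot be told apart. Within a group the labels number biological replicates 1 to 3, without saying which cultures or animals they came from, so p-values measure the spread between these samples.

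Values are log2 signals, on which a difference of 1 is a doubling, and the median of the whole table was 6.58. Genes whose highest group mean was under that line were not tested, which left 12559 genes and 24 of the 33 Hox genes: 8 of cluster A, 6 of B, 6 of C and 4 of D. Hoxd13 at 6.93 and Hoxa2 at 6.98 in CiCM were the members just inside the line, and Hoxd3 at 6.39 and Hoxb13 at 6.20, again in CiCM, were just outside. Hoxa2, Hoxa4 and Hoxd13 passed through CiCM alone, and 20 of the 24 passed through CiCM or MEF while CM was under the line. A member kept by the group where it is high is more likely to differ, so the counts of called genes and the median differences are also given with no filter, over all 33 members. Unadjusted counts, counts of separated arrays, and counts and medians by cluster and position cover the tested members unless stated, so there the filter still bears on the result. A gene was called higher or lower at an adjusted p under 0.05 in limma (Benjamini-Hochberg over all 12559 genes, 1 fit of all 9 arrays) and a log2 difference of at least 1. The 3 comparisons share arrays, so their results are not independent of one another. Levels of different genes come from different probes and are not set against each other.

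The labelled cell types were checked against marker genes, and every group also held signals of other cell types. All 12 cardiomyocyte markers lay above the line on each CM array, against 8 to 10 on the CiCM arrays and 2 on each MEF array. The log2 of their summed signal was 16.14 to 16.26 in CiCM, 18.54 to 18.94 in CM and 8.89 to 9.38 in MEF. Cardiac myosin Myh6 averaged 7.13 in CiCM and 15.72 in CM, and Myh6, Myh8 and Vwf were the markers at 0, all on MEF replicate 2. All 12 skeletal muscle markers were above the line in CiCM, against 3 or 4 in CM and 1 in MEF, with summed signals of 17.39 to 17.56, 14.90 to 15.18 and 9.98 to 10.10. All 14 fibroblast markers were above the line in CM and 13 of 14 in CiCM and in MEF, with summed signals of 17.13 to 17.20 in CiCM, 15.70 to 16.11 in CM and 17.33 to 17.34 in MEF. CM arrays also held all 7 endothelial markers (13.71 to 13.89, against 8.44 to 8.77 in CiCM and 8.78 to 9.42 in MEF) and 8 or 9 of 9 macrophage markers (13.29 to 13.62, against 10.76 to 11.17 in CiCM and 13.73 to 13.78 in MEF). These marker levels move with the groups, and their part in the Hox results was not tested. In such bulk samples fewer cells of a type and less RNA per cell cannot be told apart.

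In outline, the Hox genes stood near the MEF signals in the CiCM and at low signals in the CM. Of the 33 members 24, 26 and 23 lay at or above the line on CiCM replicates 1 to 3, against 5, 3 and 3 on the CM arrays and 23, 21 and 21 on the MEF arrays. Of all probe sets 47.8% to 49.2% lay there on the CiCM arrays, 52.6% to 54.2% on the CM arrays and 47.4% to 49.3% on the MEF arrays. Each member, though, is read from its highest probe set. Ranked among all probe sets of its array, the median tested Hox gene stood at percentile 74.6, 71.3 and 71.5 in CiCM, at 32, 21.8 and 22.7 in CM and at 70.2, 70.1 and 69.4 in MEF. For the Hox genes the CiCM and MEF ranges of both measures lie close together, and the CM arrays stand below both. The percentiles cover tested members alone. Of these 24, 20 passed the filter through CiCM or MEF with CM under the line, so the filter itself favours that order. The spread between arrays differed as well: the median SD of a tested member was 0.16 in CiCM, 0.78 in CM and 0.16 in MEF.

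**Figure D1:**
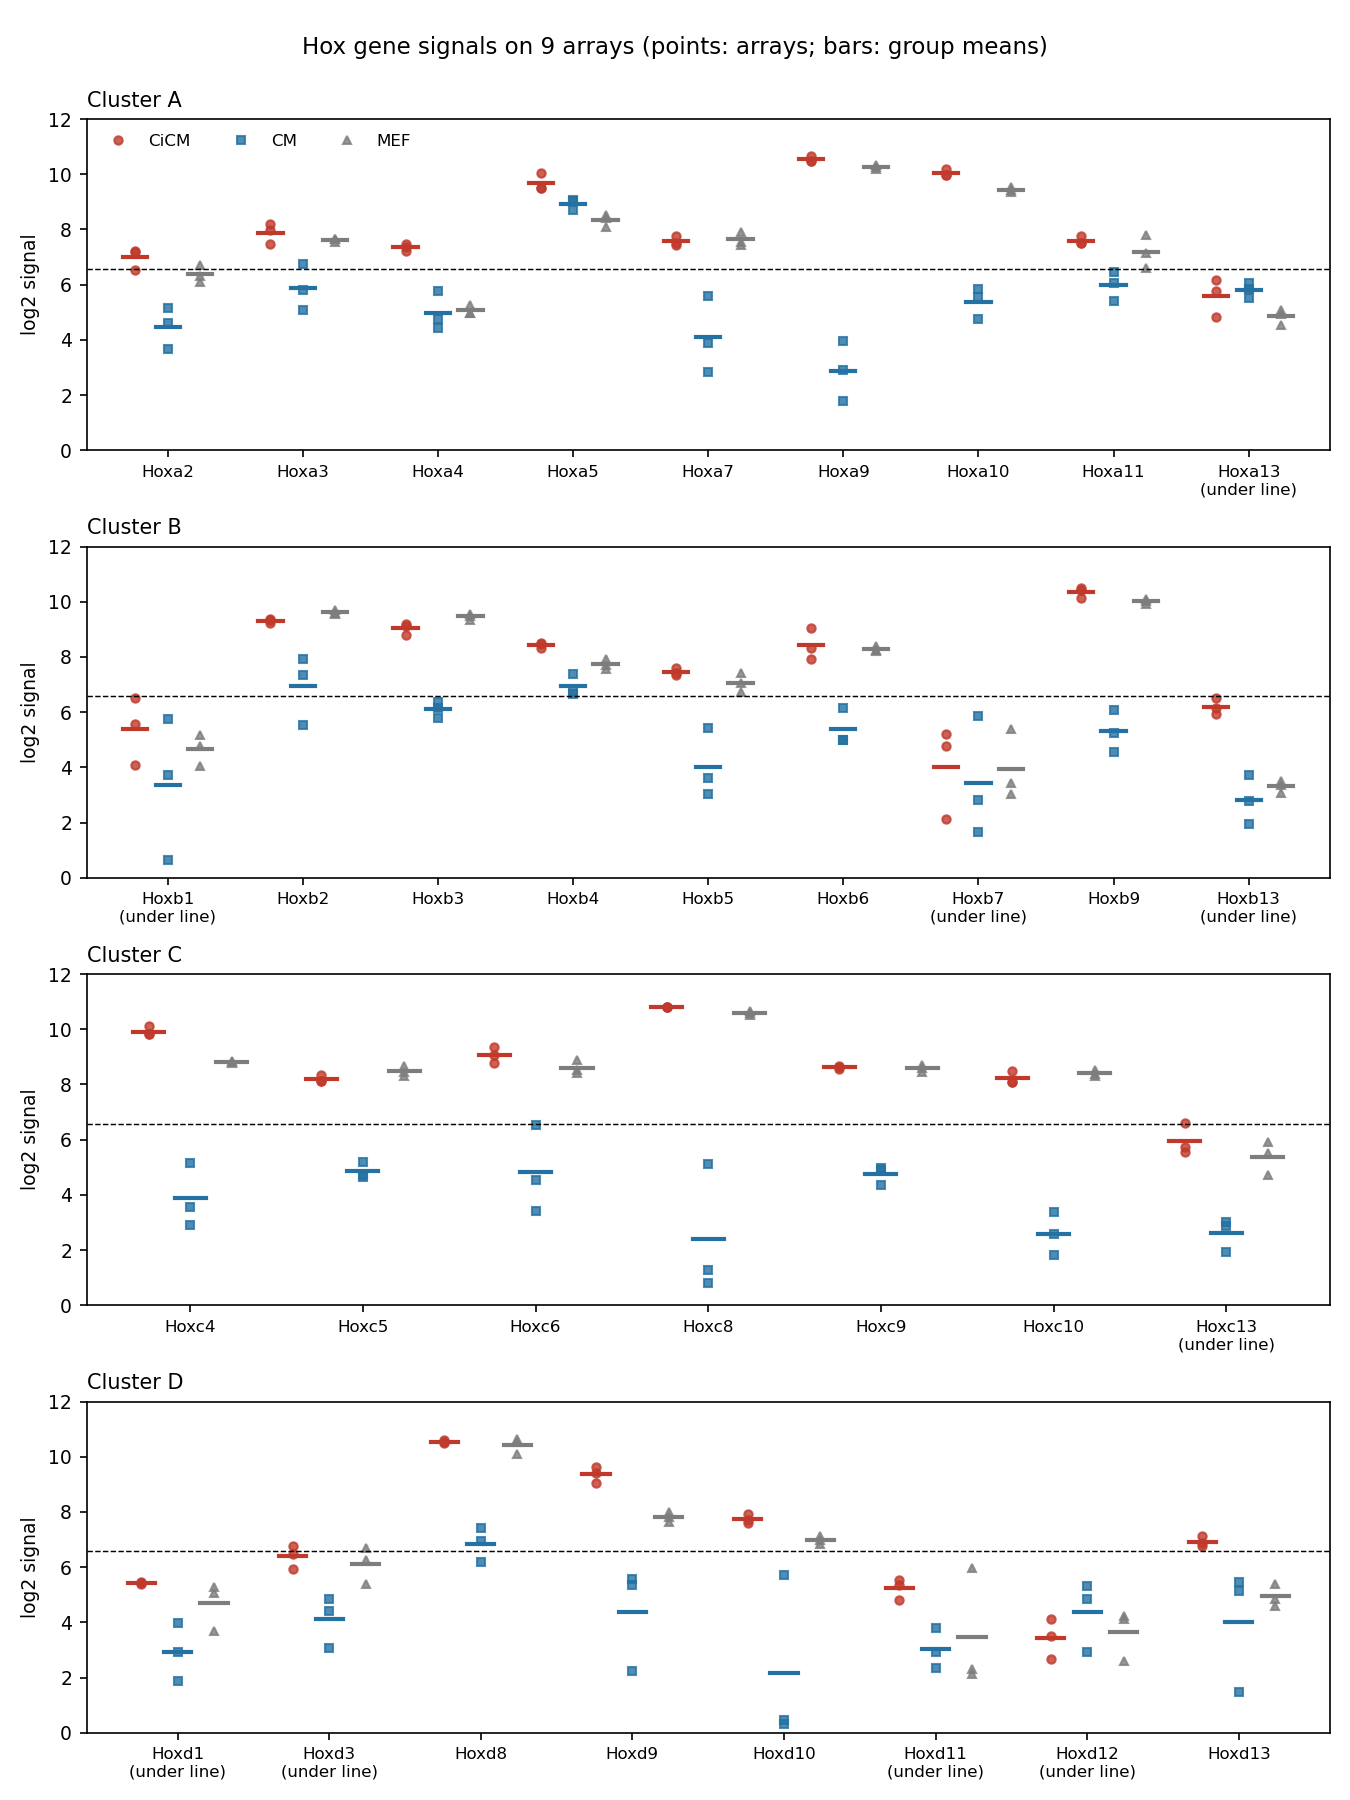
Log2 signal (vertical axis) of each of the 33 Hox genes on each array, in 4 panels for clusters A to D, with genes in order of paralogue number and CiCM, CM and MEF side by side. Points are arrays, short bars are means of 3 arrays and the dashed line is the table median of 6.58; genes marked as under the line were not tested. In Hoxa9, Hoxb9 and Hoxc8, for example, all CiCM and MEF points lie above the line and all CM points below it. The CM points of Hoxa5 lie between those of CiCM and MEF, and all points of Hoxb7 lie below the line.

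The first comparison sets the induced cells against embryonic fibroblasts, the kind of cell they were made from. Between CiCM and MEF 2 of the 24 Hox genes were called higher and 0 lower, against 11.6% of all tested genes called higher and 12.2% called lower. At an unadjusted p under 0.05 in limma, with no minimum difference, 5 were higher and 0 lower, against 26.9% and 30.6% of all genes. These counts carry the CM spread, since 1 fit covers the 3 groups (median SD 0.78 in CM, 0.16 in CiCM and in MEF). Fitted on CiCM and MEF alone, more members had an adjusted p under 0.05 in limma. Most of those were higher in CiCM, such as Hoxa10 (0.60, adjusted p = 0.000429), but Hoxb2 was lower (-0.31, adjusted p = 0.0178). In the fit of 9 arrays with no filter, 3 of 33 members were called higher, Hoxb13 being the third, against 8.52% of all 18193 genes. Their median difference was 0.40. The median difference of the 24 was 0.36, against -0.03 over all genes. A difference of less than 1 in size was found in 19 of the 24 (79.2%), near the 73.3% of all genes. Both called genes, Hoxa4 and Hoxa5, are neighbours in cluster A. Without a test, the 3 CiCM arrays were all above the 3 MEF arrays in 11 members (32.1% of all genes) and all below in 2, Hoxb2 and Hoxb3 (36.4% of all genes).

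Hoxa4, which acts in patterning of the neck vertebrae, read 7.35, 7.46 and 7.23 in CiCM, 5.76, 4.77 and 4.44 in CM and 4.99, 5.28 and 4.97 in MEF. Only the CiCM arrays were above the line, and the CM and MEF values overlapped. Its CiCM minus MEF difference was 2.26 ± 0.46 (log2, SE; adjusted p = 0.0021 in limma), for a gene that was tested because its CiCM mean passed the line, and against signals low enough that the size depends on the constant added. With a constant of 32 added to the linear signals, which damps differences between low signals, the difference was 1.56. With a constant 4 times as large it was 0.84 and under the minimum for a call. A weaker probe set of Hoxa4, below the line, had a difference of 2.12, with uneven MEF arrays at 4.15, 4.90 and 1.44. The ID of that weaker probe set ends in _x_at, a mark explained below for Hoxa5. With the mean over its probe sets Hoxa4 was under the filter and not tested.

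Hoxa5, which is needed for lung and for the vertebrae where neck meets thorax, read 10.04, 9.51 and 9.49 in CiCM, 8.69, 9.05 and 9.04 in CM and 8.09, 8.51 and 8.40 in MEF on the probe set that stands for it. The 3 groups did not overlap, with CiCM highest and MEF lowest. Hoxa5 rose by 1.35 ± 0.19 (adjusted p = 0.000172 in limma), or 2.55-fold, in CiCM against MEF. Its CM minus MEF difference was 0.59 ± 0.19 (adjusted p = 0.016), under the minimum for a call.

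The second probe set of Hoxa5 gave another order of groups. It read 10.16, 10.17 and 9.73 in CiCM, 8.07, 5.49 and 5.66 in CM and 9.12, 8.97 and 9.21 in MEF, so that CM was lowest and CiCM still highest. Its CiCM minus MEF difference was 0.92 (adjusted p = 0.181 when it stands for the gene), its CM minus MEF difference -2.69 (adjusted p = 0.00111) and its CiCM minus CM difference 3.61 (adjusted p = 0.000178). The ID of the first probe set ends in _x_at, Affymetrix's mark for probes that can also match other transcripts. The level of Hoxa5 in CM against MEF is therefore uncertain here, in sign as well as size.

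**Figure D2:**
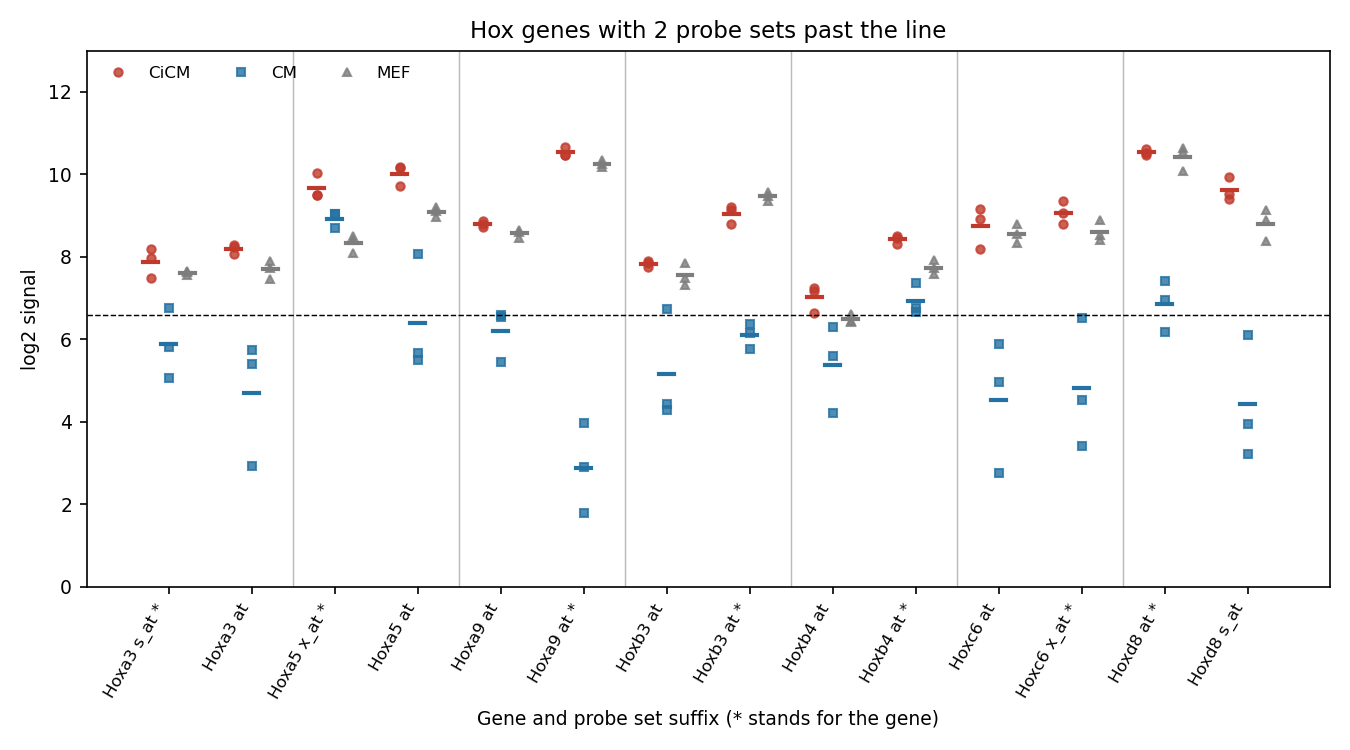
Log2 signal (vertical axis) on each array of the 7 Hox genes with 2 probe sets past the line of 6.58 (dashed), shown as CiCM, CM and MEF from left to right for each probe set; points are arrays, short bars means, and an asterisk marks the probe set that stands for the gene. The 2 probe sets of Hoxa5 place CM above and below MEF, while in the other 6 genes both place CM below MEF.

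Beyond Hoxa5, the probe sets of a gene mostly gave the same sign. Of the 7 members with 2 probe sets past the line, both had 1 sign in 6 between CiCM and MEF, in 6 between CM and MEF and in 7 between CiCM and CM. The exception between CiCM and MEF was Hoxb3, at -0.42 on the probe set used and 0.29 on the other. Sizes differed more: Hoxa9 was at -7.38 in CM against MEF on the probe set used and at -2.38 on the other.

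Hoxc4, Hoxd9 and Hoxd13 had differences over 1 between CiCM and MEF without passing the test in the fit of 9 arrays. Hoxc4 read 10.10, 9.82 and 9.81 in CiCM, 5.17, 2.91 and 3.55 in CM and 8.77, 8.86 and 8.83 in MEF, a CiCM minus MEF difference of 1.09 ± 0.46 (adjusted p = 0.0691 in limma). Hoxd9, one of the paralogue 9 genes that act in trunk and forelimb, read 9.04, 9.42 and 9.63 in CiCM, 5.58, 2.22 and 5.35 in CM and 7.62, 7.81 and 8.01 in MEF, a difference of 1.55 ± 0.72 (adjusted p = 0.0944). In both genes every CiCM array was above every MEF array.

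Hoxd13, the last gene of cluster D and a regulator of digit formation, read 7.14, 6.76 and 6.88 in CiCM, 5.47, 1.46 and 5.13 in CM and 4.60, 4.84 and 5.39 in MEF. Its CiCM minus MEF difference was 1.98 ± 0.96 (adjusted p = 0.107 in limma), again with no overlap of the arrays. The CM arrays of these 3 genes had SDs of 1.17, 1.88 and 2.22, which enter the spread that the fit uses for every comparison. Fitted on the CiCM and MEF arrays alone, the 3 genes had adjusted p = 1.58e-05 for Hoxc4, 3.96e-05 for Hoxd9 and 0.0011 for Hoxd13 in limma, and 5 Hox genes were called higher, against 12.1% of all genes. Of the 5, Hoxa4 and Hoxd13 had passed the filter through CiCM alone. The count was 5 as well with 32 added to the linear signals (10.6% of all genes) and without CM replicate 2 (11.6%).

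Promoter sequences are shown for the tested Hox genes with a CiCM minus MEF difference over 1 that have an entry (Hoxa5, which was called, and Hoxc4, Hoxd9 and Hoxd13, which were not), because TTNPB acts on receptors that bind DNA directly, and beside them that of Rarb, a receptor gene known as a direct retinoic acid target. Each line gives the 250 bases before the transcription start, 5′ to 3′, from RefSeq on GRCm38.p6. Capitals mark retinoic acid half-sites on either strand, in the forms AGGTCA, likewise AGTTCA, beside the forms GGGTCA and also GGTTCA.
Hoxa5, chr6:52204588-52204837, minus strand: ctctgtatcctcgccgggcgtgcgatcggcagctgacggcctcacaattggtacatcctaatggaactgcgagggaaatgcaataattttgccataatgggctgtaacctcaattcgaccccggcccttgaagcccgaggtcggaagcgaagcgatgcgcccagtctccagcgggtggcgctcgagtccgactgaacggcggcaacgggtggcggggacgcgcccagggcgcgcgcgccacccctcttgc
Hoxc4, chr15:103034145-103034394, plus strand: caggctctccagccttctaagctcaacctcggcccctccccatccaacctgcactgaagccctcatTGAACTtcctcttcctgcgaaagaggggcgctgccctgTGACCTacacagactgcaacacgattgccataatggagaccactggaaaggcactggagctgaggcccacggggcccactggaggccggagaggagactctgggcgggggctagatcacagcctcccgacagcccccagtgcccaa
Hoxd9, chr2:74697513-74697762, plus strand: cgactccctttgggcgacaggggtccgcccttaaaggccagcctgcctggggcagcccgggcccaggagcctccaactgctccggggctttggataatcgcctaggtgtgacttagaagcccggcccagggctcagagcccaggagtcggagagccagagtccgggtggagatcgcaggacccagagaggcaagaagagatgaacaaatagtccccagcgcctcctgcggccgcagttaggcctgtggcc
Hoxd13, chr2:74667975-74668224, plus strand: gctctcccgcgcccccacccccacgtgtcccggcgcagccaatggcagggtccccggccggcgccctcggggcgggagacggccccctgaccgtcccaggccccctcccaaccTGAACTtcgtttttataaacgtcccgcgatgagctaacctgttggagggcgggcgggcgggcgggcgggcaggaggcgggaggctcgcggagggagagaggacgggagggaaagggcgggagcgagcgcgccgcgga
Rarb, chr14:16575477-16575726, minus strand: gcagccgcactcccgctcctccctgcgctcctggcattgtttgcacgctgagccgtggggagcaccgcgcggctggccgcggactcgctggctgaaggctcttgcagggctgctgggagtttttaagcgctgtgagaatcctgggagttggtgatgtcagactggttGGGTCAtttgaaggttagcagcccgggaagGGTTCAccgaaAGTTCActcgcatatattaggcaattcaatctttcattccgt

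The Rarb window held the direct repeat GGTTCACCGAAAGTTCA, 2 half-sites with 5 bases between, 53 to 37 bases before the start. The Hoxc4 window held 2 single half-sites and the Hoxd13 window 1, and the Hoxa5 and Hoxd9 windows held none of these letters. Over the 24 windows of the 22 Hox genes with an entry, direct repeats with 5 or with 2 bases between were found in 0, against 0.0883% and 0.174% of 32851 windows of all genes. Single half-sites stood in 37.5% of the Hox windows and in 38.6% of all windows, and half-sites within a repeat are counted among them.

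Of the motifs of Hox cofactors and Cdx factors, searched on both strands, TGATNNAT (Hox with Pbx) stood in 16.7% of Hox windows and 7.68% of all windows. TTTATG (Cdx) stood in 20.8% and 10.8%, and TGACAG (Meis) in 8.33% and 15.9%. The Hox windows had a median GC content of 58.6% and a ratio of observed to expected CpG of 0.72, against 52.4% and 0.37 in all windows. Known retinoic acid elements of the clusters lie outside such windows, and a match or its absence here says only which letters are present.

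By position, the median size of the CiCM minus MEF difference, whatever its sign, was 0.36 over 4 anterior genes (paralogues 1 to 3), 0.37 over 11 central genes (4 to 8) and 0.40 over 9 posterior genes (9 to 13), with no test between them. Over all tested genes that median size was 0.52. Hoxa2 and Hoxb2, which pattern the hindbrain and the second pharyngeal arch, differed by 0.60 and -0.31, and Hoxa3 and Hoxb3, the first of which is needed for thymus and parathyroid, by 0.27 and -0.42. The signed medians were -0.02, 0.37 and 0.40, since the anterior genes went both ways. All 3 tested genes of paralogue 4, Hoxa4, Hoxb4 and Hoxc4, had every CiCM array above every MEF array, as did Hoxd13, the one tested gene of paralogue 13, and 32.1% of all genes. The same held in 3 of 4 tested genes of paralogue 9 and 2 of 3 of paralogue 10. Hoxa4 and Hoxd13 passed the filter through CiCM alone, which favours that order. Of the untested paralogue 13 genes, Hoxb13 had it too, while Hoxa13 and Hoxc13 overlapped. Hoxb4, known for its role in blood stem cells, read 8.47, 8.32 and 8.50 in CiCM and 7.92, 7.72 and 7.58 in MEF, a difference of 0.69 ± 0.22 (adjusted p = 0.0242 in limma) that is under the minimum for a call.

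Several central and posterior genes of clusters A, C and D had small differences between CiCM and MEF. Hoxc8, which patterns thoracic vertebrae and the motor neurons of the forelimb, read 10.79, 10.80 and 10.82 in CiCM and 10.51, 10.58 and 10.66 in MEF, a difference of 0.22 ± 0.87 (adjusted p = 0.852 in limma). Hoxa9 read 10.66, 10.48 and 10.48 in CiCM and 10.35, 10.19 and 10.25 in MEF, a difference of 0.27 ± 0.42. In both genes every CiCM array was above every MEF array, and the SEs carry the spread of the CM arrays (SDs of 2.38 and 1.09). Fitted on CiCM and MEF alone, Hoxc8 had adjusted p = 0.0181 and Hoxa9 adjusted p = 0.0171 in limma, with both differences still under the minimum for a call. Hoxc9 differed by 0.03, Hoxc10, a marker of lumbar level, by -0.19, and Hoxd8 by 0.11. On its other probe set past the line Hoxd8 differed by 0.81, with every CiCM array above every MEF array. A p that misses the threshold does not show that these levels were equal.

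Among the other members the CiCM minus MEF differences were 0.60 for Hoxa10, 0.40 for Hoxa11, 0.75 for Hoxd10, 0.35 for Hoxb9, 0.45 for Hoxc6, 0.37 for Hoxb5, 0.14 for Hoxb6, -0.07 for Hoxa7 and -0.28 for Hoxc5. None of these passed the test. Arrays did not overlap in Hoxa10, Hoxd10 and Hoxb9, all higher in CiCM. Levelling on the hybridisation controls turned the sign of Hoxb6, Hoxc8, Hoxc9 and Hoxd8, and centring that of Hoxc9.

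**Figure D3:**
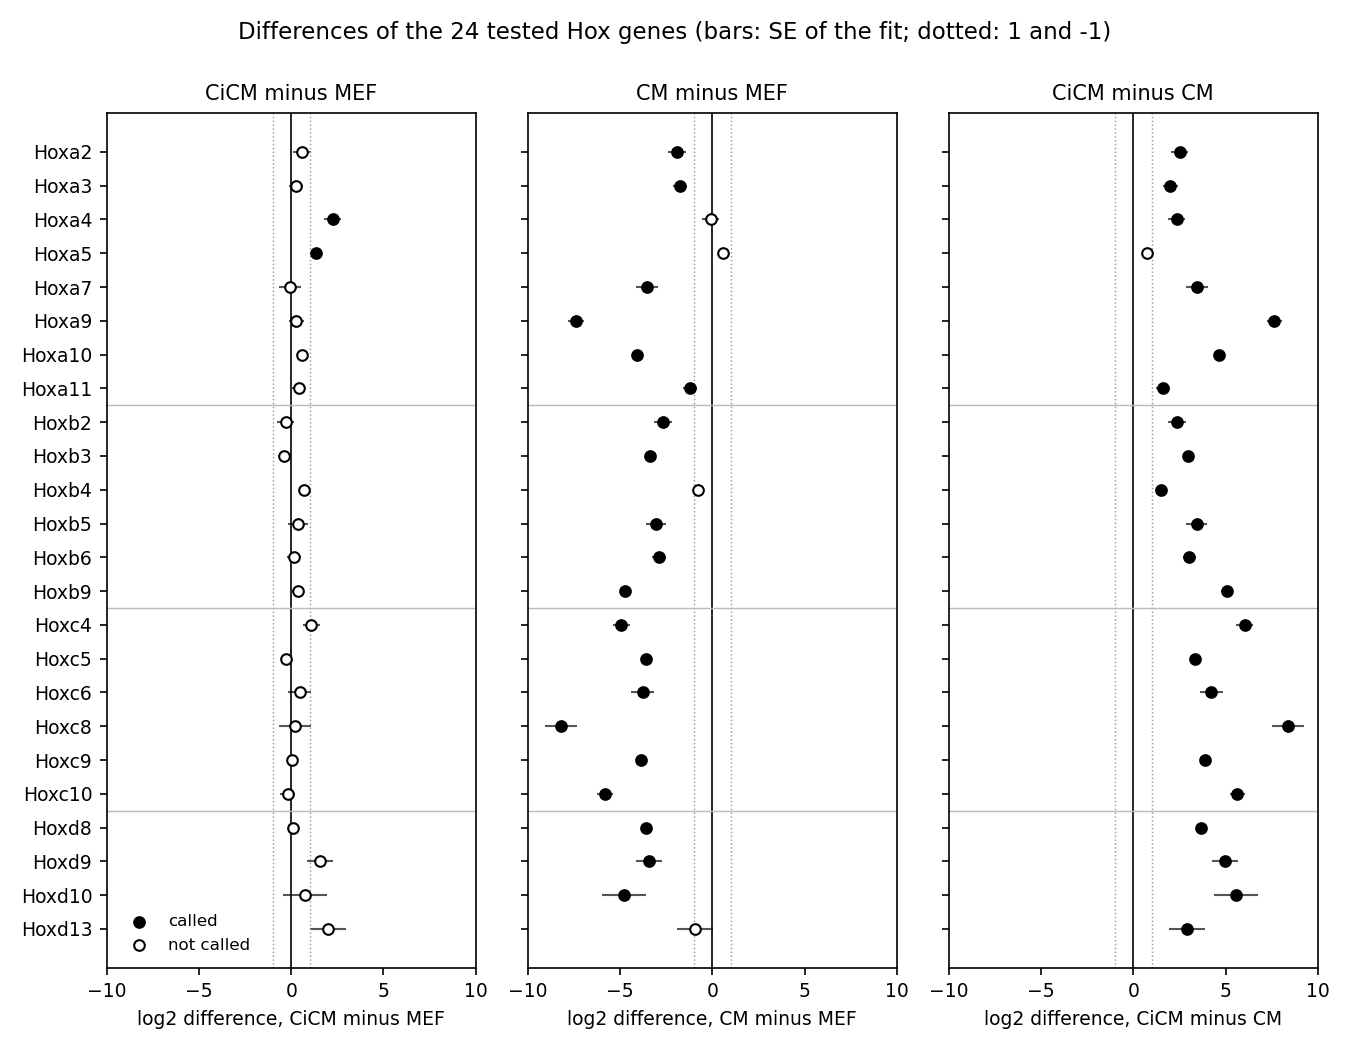
Log2 differences (horizontal axes) of the 24 tested Hox genes, listed from Hoxa2 at the top to Hoxd13 at the bottom, for CiCM minus MEF, CM minus MEF and CiCM minus CM; bars are standard errors of the fit, filled points are called and grey lines separate the clusters. The CiCM minus MEF points lie near 0 except Hoxa4, Hoxa5, Hoxc4, Hoxd9 and Hoxd13, while 20 CM minus MEF points are called below 0 and 23 CiCM minus CM points above it.

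The second comparison sets heart cardiomyocytes against embryonic fibroblasts. In CM 20 of the 24 Hox genes were called lower and 0 higher, against 21.8% of all tested genes called lower and 22.1% called higher. At an unadjusted p under 0.05 in limma 21 were lower and 1, Hoxa5, higher, against 37.7% and 34.8% of all genes. With no filter 22 of 33 members were called lower, against 15.7% of all genes, and their median difference was -2.78. The median difference of the 24 tested members was -3.49, against -0.03 over all tested genes. In 21 members the 3 CM arrays lay below the 3 MEF arrays, as in 38.7% of all genes, and in 1, Hoxa5, above them, as in 36.5%.

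Hoxc8 and Hoxa9 had the lowest CM minus MEF differences of the 24. Hoxc8 read 5.13, 1.28 and 0.80 in CM, against 10.51, 10.58 and 10.66 in MEF, and fell by 8.18 ± 0.87 (adjusted p = 9.51e-06 in limma). Hoxa9, which also acts in blood progenitors, read 3.96, 1.78 and 2.91 in CM, against 10.35, 10.19 and 10.25 in MEF, and fell by 7.38 ± 0.42 (adjusted p = 8.31e-08). The CM arrays lay far below MEF in both genes, but spread over more than 2 log2 units among themselves.

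Hoxc10 read 2.58, 1.81 and 3.38 in CM, against 8.52, 8.32 and 8.39 in MEF, and fell by 5.82 ± 0.41 (adjusted p = 4.11e-07 in limma). Detection calls were not analysed here, and differences of signals as low as these depend on the constant added. With the constant of 32 added the differences were -5.20 for Hoxc8, -4.96 for Hoxa9 and -3.27 for Hoxc10, all still called. Hoxc10 then came after Hoxb9 (-3.87), Hoxc4 (-3.30) and Hoxa10 (-3.28), while Hoxc8 and Hoxa9 still had the lowest differences. Over the 24 genes the median then became -2.26 with 19 called lower (20.5% of all genes), and with the larger constant -1.49 with 15 called (16.2%).

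By cluster, all 6 tested genes of C were called lower in CM than in MEF, with a median of -4.39. Cluster B had 5 of 6 called lower (median -2.98), cluster D 3 of 4 (median -3.51) and cluster A 6 of 8 (median -1.82). By position, 4 of 4 anterior, 8 of 11 central and 8 of 9 posterior genes were called lower, with medians of -2.29, -3.54 and -4.06. The filter bears on this order, since it kept 4 of 7 anterior, 11 of 12 central and 9 of 14 posterior members with a probe set. The untested posterior genes differed by 0.94 (Hoxa13), 0.70 (Hoxd12), -0.46 (Hoxd11), -0.49 (Hoxb13) and -2.78 (Hoxc13). These medians describe different probe sets on the same arrays, and no test was made between clusters or positions.

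The smallest differences were those of Hoxa4 at -0.09 ± 0.46, Hoxa5 at 0.59, Hoxb4 at -0.80 ± 0.22 and Hoxd13 at -0.93 ± 0.96, none of which was called. Hoxb4 read 6.67, 6.77 and 7.37 in CM, against 7.92, 7.72 and 7.58 in MEF, without overlap. It was called lower after quantile normalization (-1.05), centring (-1.17) and levelling on the hybridisation controls (-1.60), and without CM replicate 3 (-1.02). Hoxa11, which shapes the forearm and the uterus, read 6.05, 6.46 and 5.41 in CM, against 6.62, 7.15 and 7.81 in MEF, and fell by 1.21 ± 0.37 (adjusted p = 0.013 in limma). That call was lost with 32 added (-0.90), with the larger constant (-0.53), without MEF replicate 3 (-0.90) and without CM replicate 3 (-0.93).

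The genes left in CM above the line were few. Among tested members the CM group mean was at or above 6.58 in 4, Hoxa5, Hoxb2, Hoxb4 and Hoxd8. Hoxb2 read 7.36, 5.54 and 7.94 in CM, against 9.60, 9.54 and 9.70 in MEF, and fell by 2.67 ± 0.47 (adjusted p = 0.000436 in limma). Hoxd8 read 7.42, 6.95 and 6.17 in CM, against 10.65, 10.54 and 10.09 in MEF, and fell by 3.58 ± 0.27 (adjusted p = 6.46e-07). CM replicate 1 had the highest of the 3 CM values in 15 of the 24 genes, replicate 2 in 5 and replicate 3 in 4. The median fibroblast marker was at 11.38, 10.68 and 10.74 on the same arrays, and its part in the Hox signals was not tested.

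The remaining called genes fell by 1.74 to 4.94. In cluster A these were Hoxa2 (-1.91), Hoxa3 (-1.74), Hoxa7 (-3.54) and Hoxa10 (-4.06), in cluster B Hoxb3 (-3.37), Hoxb5 (-3.06), Hoxb6 (-2.90) and Hoxb9 (-4.72). In cluster C they were Hoxc4 (-4.94), Hoxc5 (-3.62), Hoxc6 (-3.78) and Hoxc9 (-3.84), and in cluster D Hoxd9 (-3.43) and Hoxd10 (-4.81). Hoxd10, which acts in hindlimb motor neurons, rested on the most uneven CM arrays, at 0.46, 5.72 and 0.32, against 6.98, 7.12 and 6.83 in MEF. With 32 added its difference was -1.80, still called, and with the larger constant -0.82, not called. The larger constant also ended the calls of Hoxa2 (-0.48), Hoxa3 (-0.76) and Hoxb5 (-0.83), and that of Hoxa3 was lost with the mean over its probe sets (-1.01, adjusted p = 0.0978 in limma).

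**Figure D4:**
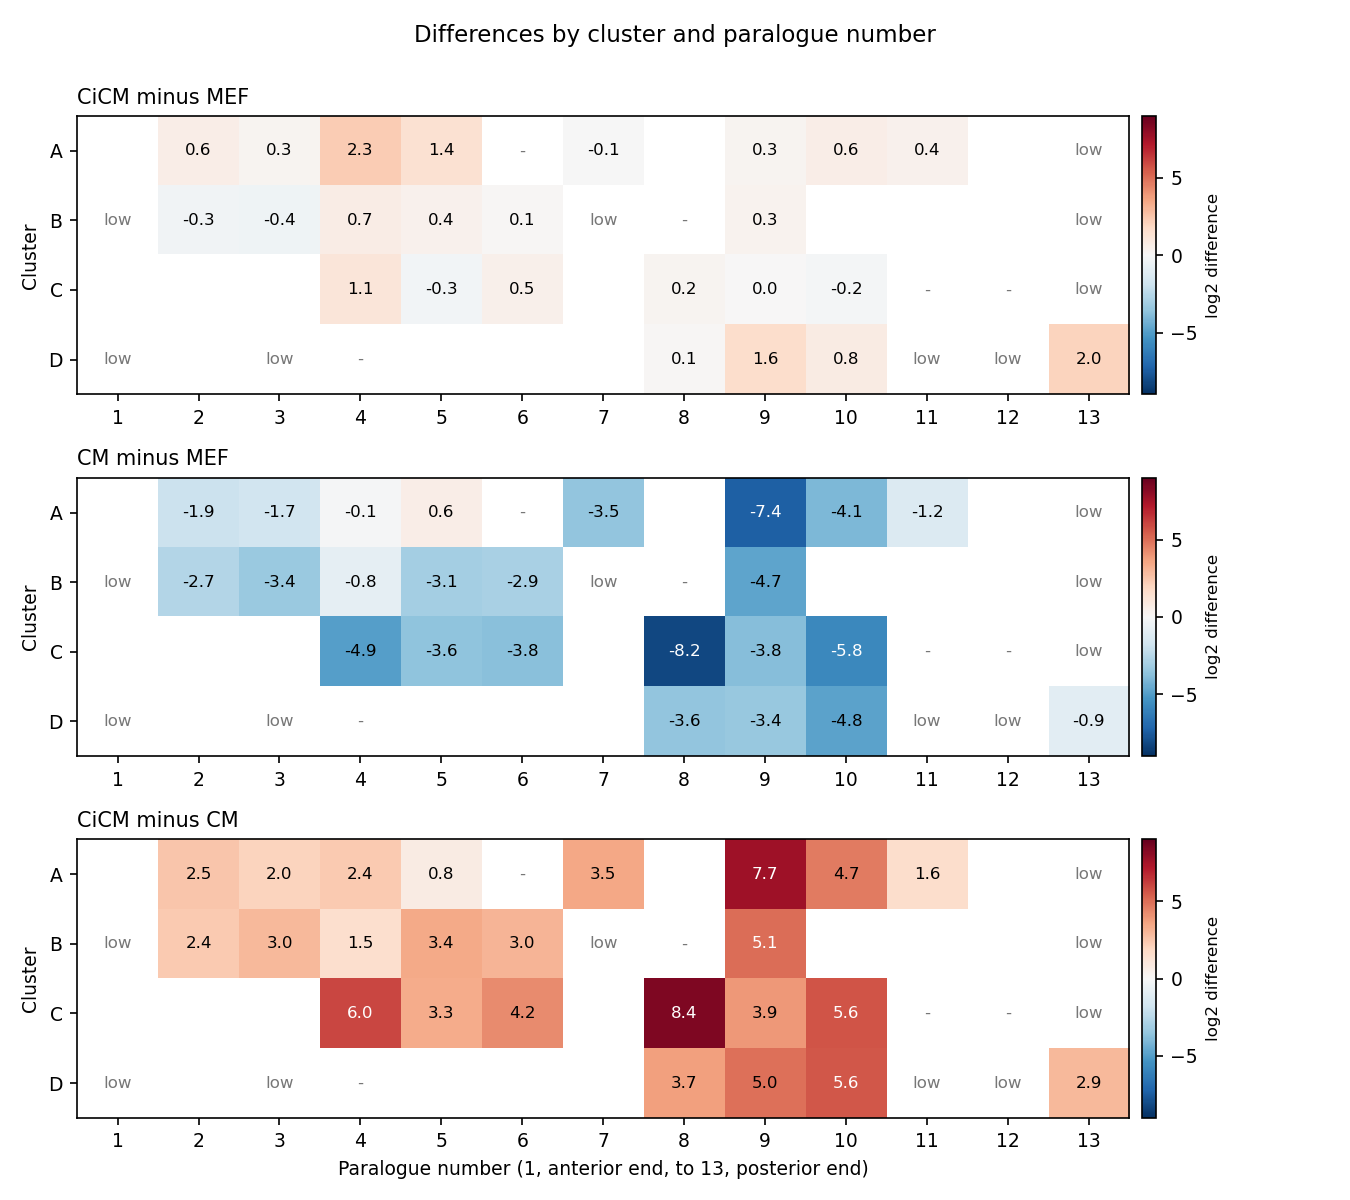
Log2 differences of the tested Hox genes by cluster (rows A to D) and paralogue number (columns 1 to 13), for CiCM minus MEF at the top, CM minus MEF in the middle and CiCM minus CM at the bottom; red is positive and blue negative, low marks a member under the filter, a dash a member with no probe set and empty cells hold no listed member. On the colour scale that the grids share, the top grid is pale throughout, with its largest values at Hoxa4, Hoxa5, Hoxc4, Hoxd9 and Hoxd13. The lower grids are deepest at Hoxa9 and Hoxc8.

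The third comparison sets the induced cells against heart cardiomyocytes, their target. Of the 24 Hox genes 23 were called higher in CiCM than in CM and 0 lower, against 16.5% of all tested genes called higher and 19% called lower. At an unadjusted p under 0.05 in limma 24 were higher and 0 lower, against 34.1% and 34% of all genes. With no filter 27 of 33 members were called higher, against 12% of all genes, and their median difference was 3.04. The median difference of the 24 tested members was 3.45, against -0.03 over all tested genes. In all 24 members every CiCM array lay above every CM array, as in 33.5% of all genes, and Hoxa5 at 0.75 ± 0.19 was the one not called.

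Hoxc8 was higher by 8.40 ± 0.87 (adjusted p = 1.15e-05 in limma) and Hoxa9 by 7.65 ± 0.42 (adjusted p = 1.28e-07). Hoxc4 followed at 6.03 ± 0.46 (adjusted p = 1.24e-06). The smallest called differences were 1.49 ± 0.22 for Hoxb4 and 1.61 ± 0.37 for Hoxa11. The medians by cluster were 2.43 in A, 2.99 in B, 4.93 in C and 4.34 in D, and by position 2.44 for anterior, 3.43 for central and 4.98 for posterior genes. Again these cover tested members alone, so the filter bears on their order. Hoxd13 rose by 2.91 ± 0.96 (adjusted p = 0.0211), and the call was lost without CiCM replicate 1 (adjusted p = 0.065) or CiCM replicate 3 (adjusted p = 0.0533).

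The other called members were higher in CiCM than in CM by 2.01 (Hoxa3) to 5.63 (Hoxc10). In cluster B Hoxb9 read 10.15, 10.44 and 10.51 in CiCM, against 6.09, 4.57 and 5.24 in CM, and was higher by 5.06 ± 0.31 (adjusted p = 2.49e-07 in limma). In cluster D Hoxd9 was higher by 4.98 ± 0.72 (adjusted p = 0.000133) and Hoxd10, at 7.91, 7.69 and 7.60 in CiCM, by 5.56 ± 1.19 (adjusted p = 0.00197). With 32 added the median of the 24 was 2.42 with 23 called (15.4% of all genes), and with the larger constant 1.49 with 17 called (11.4%). The 6 calls lost there were those of Hoxa2, Hoxa3, Hoxa4, Hoxa11, Hoxb4 and Hoxd13.

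The 9 members under the filter are given by their values. Hoxb13, the most posterior gene of cluster B and a marker of prostate and tail, read 6.52, 6.15 and 5.93 in CiCM, 2.79, 1.96 and 3.73 in CM and 3.52, 3.07 and 3.36 in MEF, with CiCM above both other groups. Hoxc13, a gene of hair and nail, read 5.72, 6.62 and 5.55 in CiCM, 3.03, 1.92 and 2.86 in CM and 5.52, 5.91 and 4.72 in MEF, with CM lowest. Hoxd3 had means of 6.39 in CiCM, 4.11 in CM and 6.11 in MEF, the same order as Hoxc13.

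Hoxa13, needed for digits and the genital tract, was the member whose CM arrays (5.50, 5.84 and 6.06) all lay above MEF (5.09, 4.95 and 4.54), with CiCM at 4.83, 6.18 and 5.76. Hoxb1, which marks a segment of the hindbrain, read 4.07, 5.57 and 6.52 in CiCM, 3.73, 0.64 and 5.74 in CM and 5.16, 4.06 and 4.78 in MEF, with overlap between all groups. Hoxb7 (2.12 to 5.20 in CiCM, 1.64 to 5.87 in CM and 3.03 to 5.38 in MEF) and Hoxd12 (2.66 to 4.11, 2.93 to 5.30 and 2.61 to 4.22) overlapped likewise. Hoxd1 was at 5.38, 5.45 and 5.42 in CiCM, above CM (1.89, 2.94 and 3.99) and MEF (5.28, 5.07 and 3.70). Hoxd11 was at 4.82, 5.52 and 5.34 in CiCM, above CM (2.35, 3.78 and 2.92) and overlapping MEF (2.14, 2.31 and 5.98).

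Genes around the clusters and in the same pathway were taken from lists written with the members. Of 19 genes listed as next to the clusters, 18 of which RefSeq's table places there, 17 had a probe set and 13 were tested, and 0 of these were called between CiCM and MEF (median 0.15), where 11.6% of all genes were called higher and 12.2% lower. At an unadjusted p under 0.05 in limma, with no minimum difference, 5 of them were higher and 3 lower, against 26.9% and 30.6% of all genes. In CM against MEF 3 were called higher (Hibadh at 2.23, Calcoco1 at 1.75 and Atp5g3 at 1.39) and 3 lower (Skap2 at -1.51, Snx10 at -1.31 and Lnpk at -2.06), with a median of -0.14, against 22.1% and 21.8% of all genes. In CiCM against CM 3 were higher (Skap2 at 2.37, Snx10 at 1.88 and Lnpk at 1.73) and 2 lower (Hibadh at -2.08 and Calcoco1 at -1.53), against 16.5% and 19% of all genes. Hibadh breaks down valine and Atp5g3 is a subunit of the mitochondrial ATP synthase. Skap2 and Snx10 are the first and second coding genes beyond one end of cluster A, and Lnpk is the second beyond Hoxd13's end of cluster D.

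Of 2 non-coding transcripts with a probe set from inside the clusters, Hoxb5os passed the filter. Hoxb5os, a long non-coding RNA of cluster B, read 11.50, 11.48 and 11.38 in CiCM, 6.58, 6.36 and 6.06 in CM and 9.18, 8.95 and 9.28 in MEF. The 3 groups were well separated: it rose by 2.32 ± 0.16 (adjusted p = 8.54e-07 in limma) in CiCM against MEF and by 5.12 in CiCM against CM, and fell by 2.80 in CM against MEF. The coding gene Hoxb5 differed by 0.37 between CiCM and MEF. Array signals of a gene and a transcript beside it are told apart only by their probes. Hoxd3os1, chosen after its values were seen, was at -0.55 (adjusted p = 0.669), -5.13 (adjusted p = 0.000764) and 4.59 for CiCM minus MEF, CM minus MEF and CiCM minus CM.

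**Figure D5:**
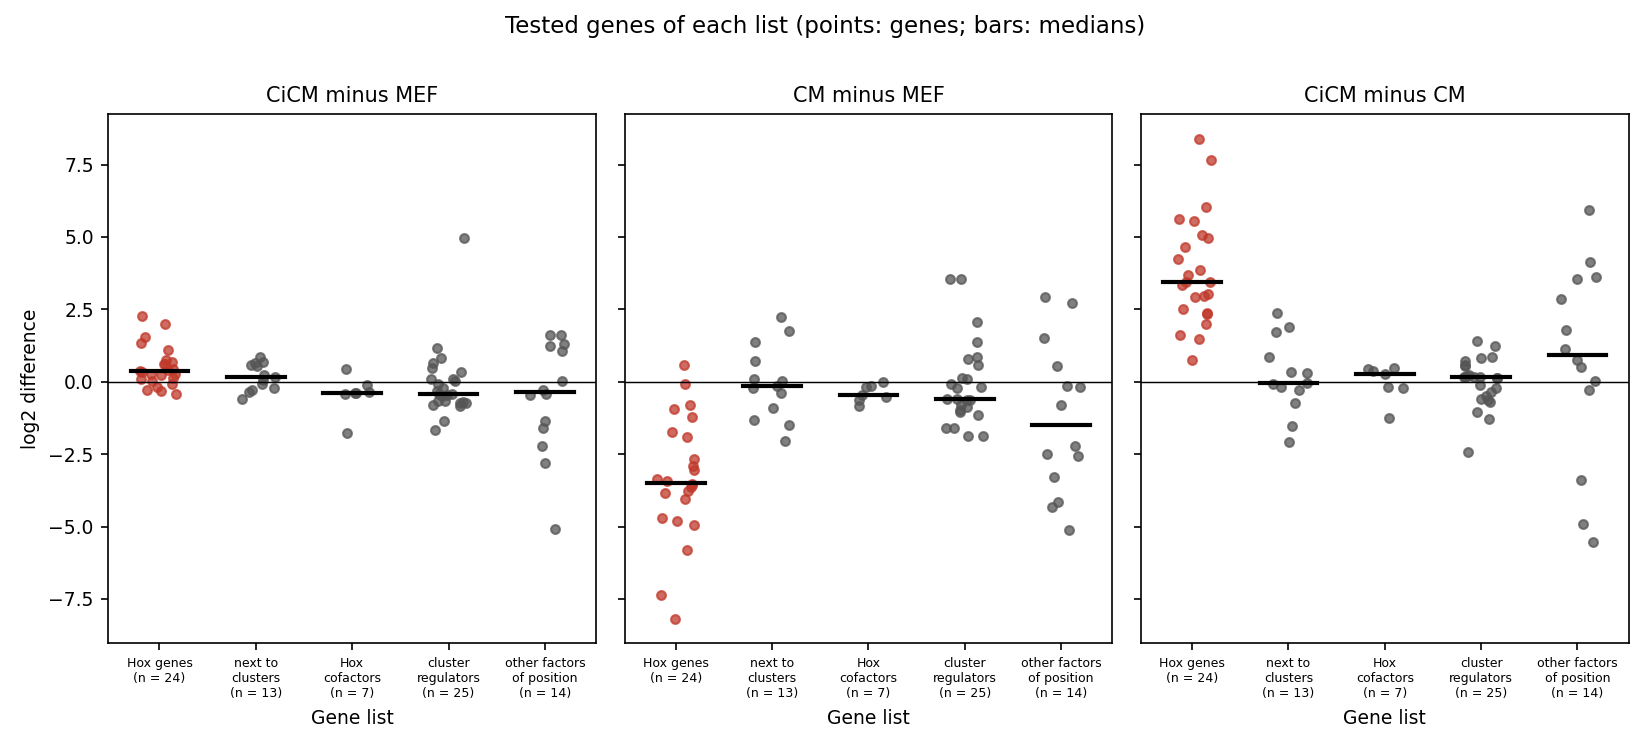
Log2 differences (vertical axis) of the tested genes of 5 lists, for CiCM minus MEF, CM minus MEF and CiCM minus CM: 24 Hox genes in red, then 13 genes next to the clusters, 7 cofactors, 25 cluster regulators and 14 other factors of position in grey. Points are genes, placed sideways at random, and bars are medians; the Hox median is 0.36, -3.49 and 3.45 in the 3 panels, against 0.15, -0.14 and -0.03 for the neighbours.

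The Hox cofactors, homeodomain partners of the Pbx and Meis families that share DNA sites with Hox proteins, were tested in 7 of 9 cases. Between CiCM and MEF 1 of 7 was called lower and 0 higher, against 12.2% and 11.6% of all genes: Meis1 read 7.69, 7.57 and 7.81 in CiCM, 9.29, 8.70 and 8.79 in CM and 9.47, 9.53 and 9.41 in MEF, and fell by 1.78 ± 0.17 (adjusted p = 1.04e-05 in limma). Its CiCM minus CM difference was -1.24, the single call of the list there, where 16.5% of all genes were called higher and 19% lower. In CM against MEF 0 of 7 were called (median -0.47), against 22.1% of all genes called higher and 21.8% lower. At an unadjusted p under 0.05 in limma 3 of 7 were lower, against 37.7% of all genes. These were Pknox1 at -0.64, Meis1 at -0.54 and Pbx2 at -0.47.

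Of the regulators of Hox clusters 25 of 29 were tested. Between CiCM and MEF 2 were called higher and 2 lower, against 11.6% and 12.2% of all genes. Rarb, a retinoic acid receptor and the gene of the direct repeat above, read 10.85, 10.88 and 10.79 in CiCM, 9.39, 9.54 and 9.30 in CM and 6.07, 5.53 and 6.01 in MEF, and rose by 4.97 ± 0.16 (adjusted p = 4.89e-09 in limma). Cbx7, a Polycomb protein, rose by 1.15, while the receptor Rara fell by 1.36 and Ezh2, the Polycomb methyltransferase, by 1.66. Ezh2 read 8.77, 8.87 and 8.82 in CiCM, 8.62, 8.46 and 8.75 in CM and 10.48, 10.34 and 10.63 in MEF. Its CiCM minus CM difference was 0.21 (adjusted p = 0.154 in limma). The proliferation markers were also lower in CiCM and in CM than in MEF. Of 6 markers 1 or 2 were above the line in CiCM, 4 or 5 in CM and 6 in MEF. Their summed signals were 8.75 to 9.20, 11.24 to 11.41 and 13.53 to 13.71, and their part was not tested.

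In CM against MEF 4 of the regulators were called higher and 6 lower, against 22.1% and 21.8% of all genes. Those higher were Rarb (3.54), Cbx7 (3.56), Jarid2 (2.08) and Kmt2a (1.36), the Trithorax methyltransferase that keeps Hox genes on. Those lower were Ezh2 (-1.87), Eed (-1.04) and Rnf2 (-1.89) of the Polycomb complexes, Rara (-1.59), Kdm1a (-1.16), which codes for LSD1, and Hdac1 (-1.59). In CiCM against CM 2 of the 25 were called higher and 3 lower, against 16.5% and 19% of all genes. Rarb (1.42) and Rnf2 (1.24) were higher, and Cbx7 (-2.41), Jarid2 (-1.27) and Kmt2a (-1.03) lower. Cdx1, Cdx2 and Cdx4, and all 5 ParaHox and Evx genes, were under the filter.

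Other transcription factors of position along trunk and limb moved in both directions, with 14 of 18 tested. Between CiCM and MEF Pitx1 (1.63), a hindlimb factor, Tbx15 (1.62), Irx5 (1.30) and Irx3 (1.25) were called higher, and Meox1 (-5.09), Meox2 (-2.79), Lhx9 (-2.21), Emx2 (-1.59) and Prrx1 (-1.36) lower. Meox1, a somite factor, read 3.88, 5.44 and 2.59 in CiCM, 8.47, 9.27 and 8.94 in CM and 9.15, 9.03 and 9.01 in MEF. Of these 14 genes 9 were called between CiCM and MEF, against 2 of 24 Hox genes and 23.8% of all genes.

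In CM against MEF 3 of the 14 were called higher and 7 lower, against 22.1% and 21.8% of all genes. Tbx5 (2.93), a factor of heart and forelimb, Meox2 (2.72) and Irx3 (1.52) were higher. Emx2 (-5.13), Tbx15 (-4.32), En1 (-4.15), Pax1 (-3.30), Shox2 (-2.57), Prrx1 (-2.48) and Lhx9 (-2.22) were lower. In CiCM against CM 7 of the 14 were called higher and 3 lower, against 16.5% and 19% of all genes. Those higher were led by Tbx15 at 5.94 ± 0.22 (adjusted p = 1.18e-08 in limma) with En1 (4.15), Shox2 (3.63), Emx2 (3.55), Pax1 (2.86), Pitx1 (1.77) and Prrx1 (1.12). Those lower were Meox2 (-5.52), Meox1 (-4.92) and Tbx5 (-3.38). Tbx5 read 4.03, 6.85 and 5.84 in CiCM, 9.51, 8.55 and 8.80 in CM and 6.19, 5.57 and 6.30 in MEF, with CiCM and MEF overlapping.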

How the data were processed

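The study measured total RNA of 3 CiCM, 3 CM and 3 MEF samples on 1-colour Affymetrix 3′ arrays with 45101 probe sets. RNA was extracted, amplified and labelled with biotin, per the labels' protocols. The authors' deposited table holds log2 signals; their processing, per the submitters' processing notes, was MAS5 (no version), and the log base comes from the values, whose trimmed mean on the linear scale is 500.003 on every array. Background correction settings, detection calls, scan batches and the genome build are not given in the sources used here, so batch and group cannot be told apart. The number of arrays limits the precision.

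Gene names are those of GEO's annotation of the platform, some of them possibly dated: 34945 had 1 symbol and 932 several, among them 3 with 2 Hox names, which were not used. Control probe sets were left out. A gene was read from the probe set whose mean over 9 arrays was highest, and 5634 genes under the line of 6.58 were not tested. Differences were tested with limma 3.58.1 in R 4.3.3 (lmFit, eBayes with trend, 2-sided, 1 fit of all 9 arrays, no covariates), adjusted over 12559 genes. The script was checked on simulated data. With 3 arrays a group, exact permutation could not give a p under 0.1. The members and lists were chosen with earlier results of these data known, and lists are described by counts and medians, with no test of their own. Named are every Hox gene of the list with a probe set, called genes of the related lists and some uncalled ones as examples.

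Alternatives were a constant of 32, or 4 times that, added to the linear signals, 3 other scalings, other filters, other probe set rules, only the 2 groups compared, no variance trend, no minimum difference, a replicate block, and fits without each of the arrays. Promoter windows, their build and motif shares were read from a RefSeq table with Python 3.11.15, and figures drawn with matplotlib 3.10.9.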

Additional observations from a re-analysis of the deposited data

How the results depend on the processing

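Of the Hox counts, those called lower between CiCM and MEF and between CiCM and CM stayed at 0 under every alternative run. Called higher between CiCM and MEF were 2 genes, but 5 with 32 added to the linear signals and 5 when only those 2 groups were fitted, and 1 with the filter at the 75th percentile (8.91, where 11 members were tested), 1 with the mean over probe sets and 1 with probe sets ending in neither _s_at nor _x_at; leaving out each array gave 2 to 5, the 5 without CM replicate 2. Called lower between CM and MEF were 20 and called higher between CiCM and CM 23, but 10 and 10 with the filter at the 75th percentile, which tests fewer genes; leaving out each array gave 19 to 20 and 22 to 23. Called higher between CM and MEF was 0, but 1 with no minimum difference. With the replicate block the counts were 2, 20 and 23. Deviations of same-numbered arrays from their group means had correlations of -0.016 to 0.067. The labels do not say whether the numbers pair samples, and correlations this small cannot settle it. Scaling moved the median of all genes: it was -0.40 for CM minus MEF and 0.28 for CiCM minus CM after centring on array medians, and -0.26 (CiCM minus MEF), -0.84 and 0.55 after levelling on the hybridisation controls. The sign turned in small CiCM minus MEF differences: Hoxa7 to 0.07 without MEF replicate 2 (leaving out each array, -0.17 to 0.07), Hoxa10 to -0.38 with the mean over probe sets, Hoxb6 to -0.09 with hybridisation controls and -0.17 without CiCM replicate 1 (-0.17 to 0.39), Hoxc8 to -0.01 with hybridisation controls, Hoxc9 to -0.03 with centring, -0.20 with hybridisation controls and -0.04 without MEF replicate 3 (-0.04 to 0.09), and Hoxd8 to -0.12 and -0.05 under those last 2 (-0.05 to 0.22). It turned in CM minus MEF for Hoxa4 (0.01 without MEF replicate 2, 0.02 without CM replicate 2, 0.19 without CM replicate 3; range -0.47 to 0.19), Hoxd13 (0.35 without CM replicate 2; range -1.65 to 0.35) and Hoxa5 (-0.21 with hybridisation controls, -1.05 with the mean over probe sets and -2.69 with neither _s_at nor _x_at). The cause was not tested.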
